A study of Homo sapiens with 6 samples.

Results

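The genes described here detect foreign or misplaced nucleic acid inside the cell or carry that signal onward. They are the RNA sensors DDX58 (RIG-I), IFIH1 (MDA5), DHX58 (LGP2), TLR3 and EIF2AK2 (PKR), the DNA sensor CGAS, the adaptors TMEM173 (STING) and MAVS, and the kinases TBK1 and IKBKE. The set was fixed by name, with CGAS found by its Ensembl identifier ENSG00000164430, and all 10 genes were present among the 58174 genes of the table. SiHa is an established human cell line from a cervical squamous cell carcinoma, and its mRNA was sequenced 48 h after Lipofectamine 3000 transfection with the plasmid GV230-BRCA1 (OV-BRCA1 group, 3 samples) or with GV230 alone (NC group, 3 samples). Both groups had therefore received plasmid DNA and the transfection reagent, the overexpression was transient and in 1 cell line, and no sample without plasmid was analysed here. The levels are FPKM, the fragments per kilobase of transcript, scaled to the mapped fragments of the sample, which can be compared between genes because they are given per length. In bulk RNA, fewer cells with a transcript and less of it per cell cannot be told apart, and a change in every cell and a change in the fraction of cells that took up plasmid cannot be told apart.

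RIG-I and MDA5 bind double-stranded RNA in the cytosol and, through a pair of CARD domains each, engage MAVS on mitochondria, whereas LGP2 belongs to the same helicase family but lacks the CARD domains. TLR3 reads double-stranded RNA in endosomes and signals through the adaptor TICAM1, and PKR phosphorylates eIF2 alpha and so lowers translation. cGAS makes the second messenger cGAMP on cytosolic DNA, and cGAMP activates STING. MAVS, TICAM1 and STING all lead to the kinases TBK1 and IKK epsilon (IKBKE), which phosphorylate IRF3 and IRF7, and these factors induce interferon genes. Several of the sensors are themselves known interferon-stimulated genes.

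The DNA around the transcription start is shown for the 4 sensors with a log2 fold change above 1 and for MAVS, the gene of the set that was lower, because known interferon-response elements lie close to the start of many induced genes. The sequences come from a table of RefSeq windows (GRCh38.p14), in which 7 of the 10 genes were matched. DHX58, CGAS and TMEM173 were not matched there. Each run holds the 250 bases before the annotated start and the first 10 bases of the transcript, 5′ to 3′ on the strand of the gene. Capitals mark matches to 4 motifs that were searched on both strands of the whole window of 300 bases, namely the interferon-response motif (GAAA, any 2 bases, GAAA), the same motif with a spacer of 1 base (GAAANGAAA), the STAT-type motif TTCNNNGAA, and the NF-kB-type motif (GGG, any 2 bases, TTTCC).
DDX58 (chr9:32526187-32526446, minus strand): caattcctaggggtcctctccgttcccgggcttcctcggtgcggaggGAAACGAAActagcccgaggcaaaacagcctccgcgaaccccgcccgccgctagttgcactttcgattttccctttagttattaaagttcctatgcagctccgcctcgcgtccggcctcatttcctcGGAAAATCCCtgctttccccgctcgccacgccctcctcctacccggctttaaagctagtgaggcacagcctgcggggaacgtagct
IFIH1 (chr2:162318675-162318934, minus strand): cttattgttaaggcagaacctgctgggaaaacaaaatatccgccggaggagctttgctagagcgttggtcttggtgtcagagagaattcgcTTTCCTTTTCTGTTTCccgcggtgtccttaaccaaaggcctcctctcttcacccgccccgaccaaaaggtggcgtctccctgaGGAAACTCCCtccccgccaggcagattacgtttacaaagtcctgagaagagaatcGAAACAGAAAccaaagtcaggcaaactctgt
EIF2AK2 (chr2:37156971-37157230, minus strand): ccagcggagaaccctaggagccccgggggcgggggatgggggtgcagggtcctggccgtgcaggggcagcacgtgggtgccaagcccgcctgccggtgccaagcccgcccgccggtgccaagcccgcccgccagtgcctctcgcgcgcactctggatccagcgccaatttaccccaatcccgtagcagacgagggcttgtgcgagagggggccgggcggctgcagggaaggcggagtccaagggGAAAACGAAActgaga
TLR3 (chr4:186068906-186069165, plus strand): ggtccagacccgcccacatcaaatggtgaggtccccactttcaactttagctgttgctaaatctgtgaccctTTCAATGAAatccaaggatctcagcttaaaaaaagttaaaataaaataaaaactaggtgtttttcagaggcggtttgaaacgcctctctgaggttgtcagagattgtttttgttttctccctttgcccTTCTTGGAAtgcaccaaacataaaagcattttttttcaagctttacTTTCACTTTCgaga
MAVS (chr20:3846584-3846843, plus strand): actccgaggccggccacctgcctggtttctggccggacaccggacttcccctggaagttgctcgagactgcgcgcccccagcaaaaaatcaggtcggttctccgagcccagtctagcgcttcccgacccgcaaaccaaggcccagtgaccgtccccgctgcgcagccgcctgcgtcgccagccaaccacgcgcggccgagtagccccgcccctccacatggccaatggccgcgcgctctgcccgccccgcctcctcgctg

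IFIH1 held 3 matches to the interferon-response motif, at -159 to -150, -153 to -144 and -21 to -12 from the start, of which the first 2 overlap. EIF2AK2 held 1 match across its RefSeq start (-6 to 4), and TLR3 held 1 across its own (-4 to 6). TLR3 also held 2 STAT-type matches at -178 to -170 and -50 to -42. DDX58 had no match to the interferon-response motif and 1 to GAAANGAAA at -203 to -195. The 4 motifs were chosen after these sequences and the expression values had been seen. DDX58 and IFIH1 each had an NF-kB-type match at -76 to -67. All positions count from the RefSeq start, whereas the gene bounds printed below follow another annotation, GENCODE 29. For DDX58 (32526324) and EIF2AK2 (37157065) those bounds begin further upstream, inside the printed run. The NF-kB-type match of DDX58 thus lies within its GENCODE bounds. MAVS, TBK1 and IKBKE had no match to any of the 4 motifs in this window, which says only that these letters are not in it. Among all 35116 windows of the table, 3.57% held the interferon-response motif, 3.12% GAAANGAAA, 7.66% the STAT-type and 1.91% the NF-kB-type motif. A match is a description of the sequence, and binding was not measured in these samples.

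**Figure D1:**
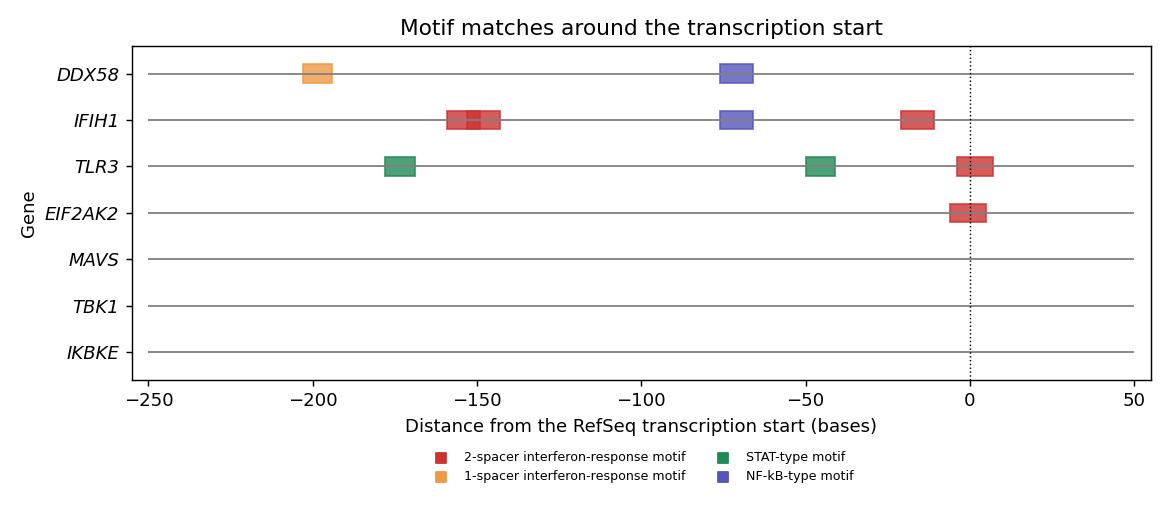
Matches to the 4 motifs by distance in bases from the RefSeq transcription start (dotted line) in the 7 genes with a window, each coloured block standing for 1 match. Matches lie in DDX58, IFIH1, TLR3 and EIF2AK2, and the windows of MAVS, TBK1 and IKBKE hold none.

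The overexpressed gene itself was read first. BRCA1 stood at 35.7, 40.8 and 34.9 FPKM in the OV-BRCA1 samples and at 20.1, 14.9 and 21.7 FPKM in the NC samples, a difference of 0.95 on the log2 scale (SE, the standard error, 0.14, adjusted p = 0.00373, limma), and between 0.80 and 1.06 with 1 sample left out. The depth was estimated at 14320000 to 19900000 fragments per sample. The 7 epithelial markers summed to 1593 to 1740 FPKM in the OV-BRCA1 samples and 1933 to 1977 FPKM in the NC samples. Of the 5 that were tested, KRT8, KRT18 and EPCAM were called higher and KRT17, the most abundant, lower (1033 against 1434 FPKM). CDH1 was tested and not called, and KRT19 and KRT5 did not pass the filter. CDH1, KRT19 and KRT5 stayed under 1 FPKM in every sample. All 6 leukocyte markers stayed under 0.5 FPKM in every sample (sums of 0.0918 to 0.176 and 0.229 to 0.319 FPKM), with PTPRC listed at 0. The 6 fibroblast and endothelial markers summed to 4.0 to 4.63 and 6.69 to 7.45 FPKM, 4 of them under 0.5 FPKM in every sample. The mitochondrial share of the summed FPKM was 14.8% to 17.3% in the OV-BRCA1 samples and 21.0% to 23.2% in the NC samples. Scaling by the median of ratios or, as a choice made after seeing the data, to the summed FPKM of protein-coding nuclear genes left 7 members called higher and 1 called lower, as without it. The part of the mitochondrial share in the other values was not tested, and handling of the groups at separate times, if any, cannot be told apart from the plasmid.

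Of the 10 genes, 7 rose and 1 fell in the OV-BRCA1 group at an adjusted p-value below 0.05 (limma on log2(FPKM + 1), adjusted over 16321 genes), against 16.4% of all genes tested that rose (2674) and 18.9% that fell (3090). On protein-coding transcripts only, 2105 genes rose and 1589 fell. DDX58, IFIH1, TLR3 and EIF2AK2 also had a log2 fold change above 1, the study's criterion for a differentially expressed gene (DEG), which 2.89% of the tested genes passed upward. DHX58, CGAS and TMEM173 rose by less, MAVS fell, and TBK1 and IKBKE did not pass the test. In the same 7 genes the lowest OV-BRCA1 value exceeded the highest NC value, as in 23.4% of all genes tested, and in MAVS all OV-BRCA1 values were below all NC values, as in 27.4%. All 10 genes passed the filter of at least 0.5 FPKM in at least 3 samples, TLR3 through the OV-BRCA1 samples and 1 NC sample. The median log2 fold change was 0.77 over the 10 genes and -0.04 over all genes tested. For any gene taken alone, an exact two-sided permutation test of 3 samples against 3 cannot go below 0.1.

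**Figure D2:**
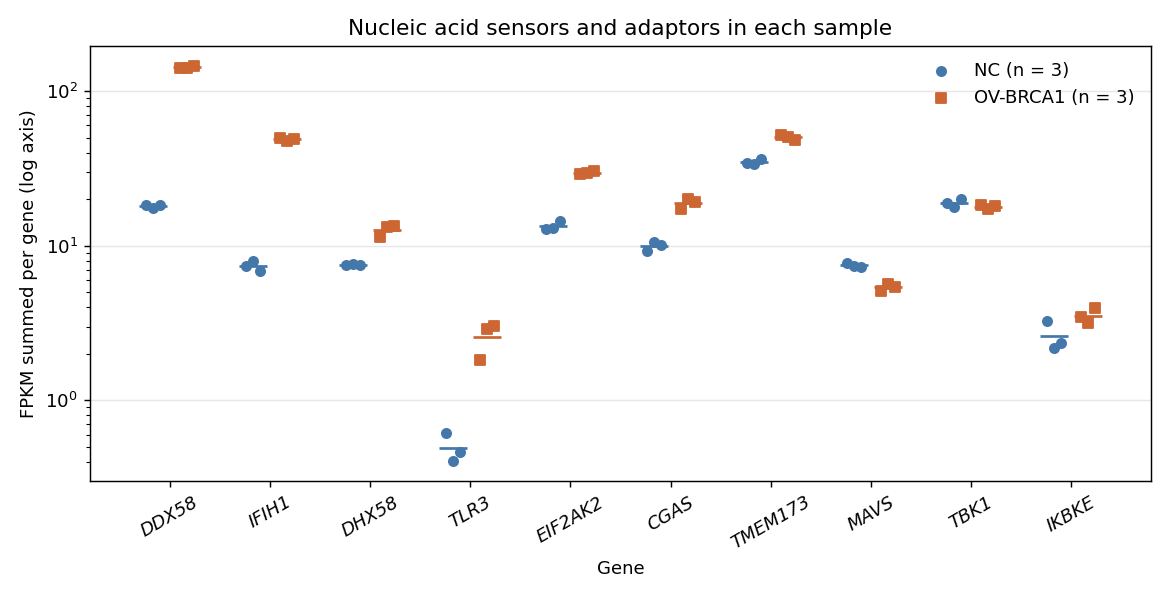
FPKM summed per gene (log axis) of the 10 genes in every sample, with NC samples as circles, OV-BRCA1 samples as squares and bars at the means (n = 3 each). The groups are apart for all genes except TBK1 and IKBKE, and MAVS is the gene whose OV-BRCA1 samples lie below.

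DDX58, which encodes the sensor of RNA with a 5′ triphosphate end, showed the largest difference of the set. It stood at 140.5, 140.0 and 145.7 FPKM in the OV-BRCA1 samples and at 18.2, 17.4 and 18.3 FPKM in the NC samples. The levels were thus 7.90 times higher, with a gap far wider than the spread of either group, and the log2 fold change was 2.91 (SE 0.05, adjusted p = 1.24e-06). By this value DDX58 ranked 42 among the 16321 genes tested. The gene lies at chromosome 9, 32455705 to 32526324, on the minus strand of GRCh38. In the order of levels it held place 3 in the NC group, where its samples overlapped those of TBK1, and place 1 in the OV-BRCA1 group with no overlap.

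IFIH1 encodes the sensor of long double-stranded RNA. Its levels were 49.98, 47.8 and 48.6 FPKM against 7.38, 7.91 and 6.83 FPKM, so they were 6.62 times higher in the OV-BRCA1 group. The gene lies at chromosome 2, 162267079 to 162318703 (minus strand). The log2 fold change was 2.57 (SE 0.07, adjusted p = 4.12e-06). DDX58 was the more abundant of these sensors in every sample, and its ratio to IFIH1 was 2.81 to 2.997 in the OV-BRCA1 samples and 2.20 to 2.68 in the NC samples. Both genes therefore moved by a similar factor, with a somewhat larger one for DDX58.

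DHX58, the family member without CARD domains, which is known to modulate the other helicases, moved less. It was measured at 11.4, 13.3 and 13.4 FPKM against 7.47, 7.61 and 7.48 FPKM, and the log2 fold change was 0.68 (SE 0.08, adjusted p = 0.00142). DHX58 lies at chromosome 17, 42101404 to 42112733 (minus strand). In the NC samples the sums of IFIH1 and DHX58 over all transcript classes were at nearly the same level, with ratios of 0.913 to 1.04. In the OV-BRCA1 samples IFIH1 was 3.60 to 4.39 times as abundant, and DDX58 was 10.5 to 12.3 times as abundant as DHX58 after 2.29 to 2.45 times in the NC samples. On protein-coding transcripts, which hold the smaller part of DHX58, the ratio of IFIH1 to DHX58 was 2.32 to 3.60 in the NC samples and 8.31 to 10.1 in the OV-BRCA1 samples. On either measure the ratios of the groups did not overlap.

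TLR3 was the least abundant gene of the set in both groups. It stood at 1.83, 2.87 and 3.01 FPKM in the OV-BRCA1 samples and at 0.619, 0.407 and 0.460 FPKM in the NC samples. These levels rest on an estimated 163 to 205 and 42.8 to 49.4 fragments per sample. The means were 5.19 times apart, and the groups did not overlap. The log2 fold change on log2(FPKM + 1) was 1.24 (SE 0.16, adjusted p = 0.00183), a scale that understates changes at low levels. With a pseudocount of 0.1 it was 2.15. TLR3 lies at chromosome 4, 186069152 to 186088069 (plus strand).

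EIF2AK2 encodes PKR, the kinase that halts translation on double-stranded RNA. The gene was at 29.1, 29.4 and 30.6 FPKM against 12.9, 12.9 and 14.4 FPKM, which is 2.22 times higher in the OV-BRCA1 group. The log2 fold change was 1.09 (SE 0.06, adjusted p = 1.01e-04), only slightly above the criterion. EIF2AK2 (chromosome 2, 37099210 to 37157065, minus strand) shares 35 bases with GPATCH11 on the opposite strand, which was at 4.11 to 4.87 FPKM over all samples, and whether strand was used in the counting is not given in the sources used here.

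CGAS and TMEM173, of the DNA-sensing arm, both rose. CGAS was measured at 17.2, 20.1 and 19.2 FPKM against 9.24, 10.5 and 10.1 FPKM, with a log2 fold change of 0.86 (SE 0.08, adjusted p = 6.67e-04). TMEM173, the receptor of cGAMP, stood at 52.1, 50.1 and 48.0 FPKM against 34.2, 33.9 and 36.2 FPKM, with a log2 fold change of 0.51 (SE 0.05, adjusted p = 0.00102). On protein-coding transcripts only, the log2 fold change of TMEM173 was 1.16 and that of CGAS 0.87. Summed over all transcript classes, TMEM173 was the most abundant gene of the set in the NC group, whereas on protein-coding transcripts it held place 9 of 10 at a mean of 1.88 FPKM. CGAS lies at chromosome 6, 73413515 to 73452276, and TMEM173 at chromosome 5, 139475534 to 139482935, both on the minus strand. CGAS shares 4055 bases with DDX43 on the opposite strand, which was at 0.0491 to 0.163 FPKM. The ratio of TMEM173 to CGAS was 3.23 to 3.70 in the NC samples and 2.49 to 3.03 in the OV-BRCA1 samples for these sums. On protein-coding transcripts the direction turned, with 0.151 to 0.227 in the NC samples and 0.229 to 0.391 in the OV-BRCA1 samples, values that nearly touch.

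MAVS, the mitochondrial adaptor that RIG-I and MDA5 share, went the other way. Its levels were 5.06, 5.68 and 5.39 FPKM in the OV-BRCA1 samples and 7.74, 7.42 and 7.33 FPKM in the NC samples. The NC mean was 1.39 times the OV-BRCA1 mean, and the log2 fold change was -0.41 (SE 0.07, adjusted p = 0.00633). MAVS lies at chromosome 20, 3846799 to 3876123 (plus strand). In the NC samples MAVS overlapped DHX58 and IFIH1 in level, and the ratio of IFIH1 to MAVS was 0.932 to 1.07. In the OV-BRCA1 samples that ratio was 8.41 to 9.88, and the ratio of DDX58 to MAVS was 24.6 to 27.8 after 2.35 to 2.50.

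The kinases did not pass the test. TBK1 stood at 18.4, 17.2 and 18.2 FPKM against 19.0, 17.7 and 20.0 FPKM, and the groups overlapped. Its log2 fold change was -0.07 with a 95% confidence interval from -0.23 to 0.08 (adjusted p = 0.422). IKBKE, the inducible relative of TBK1, was at 3.44, 3.14 and 3.97 FPKM against 3.26, 2.17 and 2.34 FPKM, a log2 fold change of 0.34 (95% confidence interval 0.00094 to 0.68, adjusted p = 0.108). NC replicate 1 overlapped the OV-BRCA1 samples, and without it the log2 fold change was 0.47 (adjusted p = 0.0369). On protein-coding transcripts only, the IKBKE groups were apart, at 3.34, 3.05 and 3.22 FPKM against 2.81, 2.03 and 1.87 FPKM. The gene still did not pass the test there (log2 fold change 0.39, adjusted p = 0.0665, limma). IKBKE rests on an estimated 112.2 to 142.9 fragments per sample. The short transcript IKBKE-202, of 678 bases, held 33.7% of the gene's FPKM in NC replicate 1 and 0.543% and 12.3% in the other NC samples, and its part in the spread was not tested. TBK1 lies at chromosome 12, 64451880 to 64502108, and IKBKE at chromosome 1, 206470476 to 206496889, both on the plus strand, and the antisense gene AC135279.3, at 0.608 to 1.41 FPKM, shares 1022 bases with TBK1. TBK1 was the more abundant kinase throughout, 4.58 to 5.46 times in the OV-BRCA1 samples and 5.83 to 8.55 times in the NC samples.

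**Figure D3:**
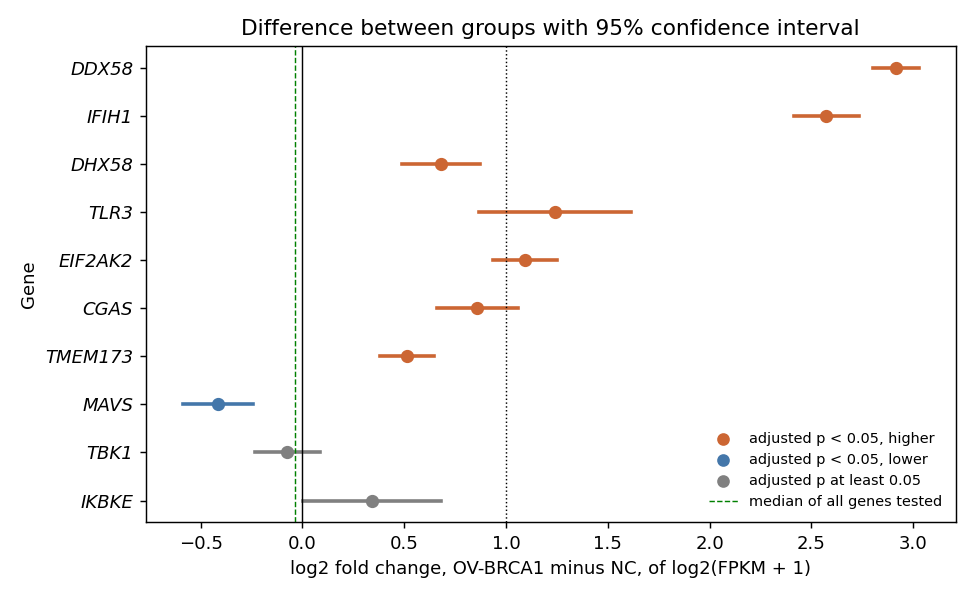
Log2 fold change of log2(FPKM + 1), OV-BRCA1 minus NC, for each gene with its 95% confidence interval from limma, with the study's limit of 1 (dotted) and the median of all genes tested (dashed, -0.04). DDX58 and IFIH1 stand apart at 2.91 and 2.57, and the intervals of MAVS and TBK1 lie lowest.

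The order of the levels, summed over all transcript classes, changed with the group. In the NC samples it ran from TMEM173 over TBK1, DDX58, EIF2AK2, CGAS, DHX58, MAVS, IFIH1 and IKBKE to TLR3, and the neighbours TBK1 and DDX58, DHX58 and MAVS, and MAVS and IFIH1 overlapped. In the OV-BRCA1 samples it ran from DDX58 over TMEM173, IFIH1, EIF2AK2, CGAS, TBK1, DHX58, MAVS and IKBKE to TLR3, and TMEM173 and IFIH1 overlapped, as did CGAS and TBK1. IFIH1 moved from place 8 to place 3. On protein-coding transcripts only, the NC order was DDX58, TBK1, EIF2AK2, CGAS, MAVS, IFIH1, DHX58, IKBKE, TMEM173 and TLR3, so that TMEM173 and DHX58 (means of 1.88 and 2.54 FPKM) stood below MAVS and IFIH1. In this order MAVS overlapped IFIH1, DHX58 overlapped IKBKE, and IKBKE overlapped TMEM173. In the OV-BRCA1 samples DDX58 was then followed by IFIH1, EIF2AK2, CGAS, TBK1, TMEM173, MAVS, DHX58, IKBKE and TLR3, and TMEM173, MAVS and DHX58 overlapped.

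The table divides each gene over annotated transcripts, 59 for the set, of which 31 passed the filter. At this level 5 rose and 1 fell (limma, adjusted over 50925 transcripts), against 2.85% and 2.63% of all transcripts tested. With 1 sample left out, 4 to 5 transcripts of the set were called. The 5 were DDX58-202, IFIH1-201, IFIH1-202, TLR3-201 and EIF2AK2-201, all protein-coding, and the 1 was MAVS-202. IFIH1-201, a transcript of 3595 bases in 16 exons, rose from 5.84, 6.69 and 6.28 FPKM to 41.8, 41.2 and 41.8 FPKM and carried 79.2% to 92.0% of the gene in every sample. EIF2AK2-201 carried 82.3% to 88.2% of its gene and differed by 1.05 on the log2 scale (adjusted p = 0.00381), close to that of the sum. In these genes most of the sum lay on 1 transcript in every sample.

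For DDX58 the division between its transcripts was unstable. DDX58-202 was at 95.1, 77.6 and 82.3 FPKM against 5.47, 14.8 and 6.57 FPKM (adjusted p = 0.00861), and DDX58-201 at 45.4, 62.4 and 63.4 FPKM against 12.7, 2.60 and 11.8 FPKM (adjusted p = 0.0508). In NC replicate 2 the share of DDX58-202 was 85.1%, and in the other NC samples it was 30.1% and 35.9%. The sum over both varied far less between the NC samples than either transcript did. CGAS gave a similar picture, since CGAS-202 was listed at 0 in NC replicate 1 and at 3.07 and 3.23 FPKM in the other NC samples, and neither CGAS transcript passed the test.

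TMEM173 and DHX58 differed from the rest in the class of their transcripts. Of the 15 TMEM173 transcripts 2 are annotated as protein-coding, and they held 4.59% to 6.08% of the gene's FPKM in the NC samples and 7.52% to 15.5% in the OV-BRCA1 samples. The most abundant was the retained-intron transcript TMEM173-207 at 20.6, 17.8 and 17.5 FPKM against 14.7, 13.1 and 17.1 FPKM (adjusted p = 0.250). The protein-coding transcripts alone summed to 3.92, 5.43 and 7.42 FPKM against 2.08, 1.56 and 2.01 FPKM, and when all genes were tested on such transcripts only, the TMEM173 log2 fold change was 1.16 (adjusted p = 0.0109) in place of 0.51, so that 5 members were then DEGs. The transcripts of other classes summed to 48.2, 44.7 and 40.5 FPKM against 32.1, 32.4 and 34.2 FPKM, so most of the gene's level lay outside the protein-coding transcripts in every sample. No single TMEM173 transcript passed the test. Of the 2 protein-coding ones, TMEM173-208, of 901 bases, was at 1.81, 2.94 and 7.30 FPKM against 1.46, 1.09 and 1.40 FPKM. TMEM173-201, of 1771 bases, overlapped between the groups, at 2.11, 2.49 and 0.121 FPKM against 0.614, 0.472 and 0.612 FPKM. The share of all genes that were DEGs on protein-coding transcripts only is not given here.

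In DHX58, protein-coding transcripts held 27.7% to 41.5% of the FPKM in the NC samples and 35.4% to 49.9% in the OV-BRCA1 samples. They summed to 5.67, 5.71 and 4.74 FPKM against 3.10, 2.11 and 2.42 FPKM, and the log2 fold change was 0.85 on these alone. In the remaining genes the protein-coding share was above 65% in every sample, and DDX58 and MAVS had no other class. How reads were divided among transcripts is not given in the sources used here, so values of single transcripts are less certain than sums.

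**Figure D4:**
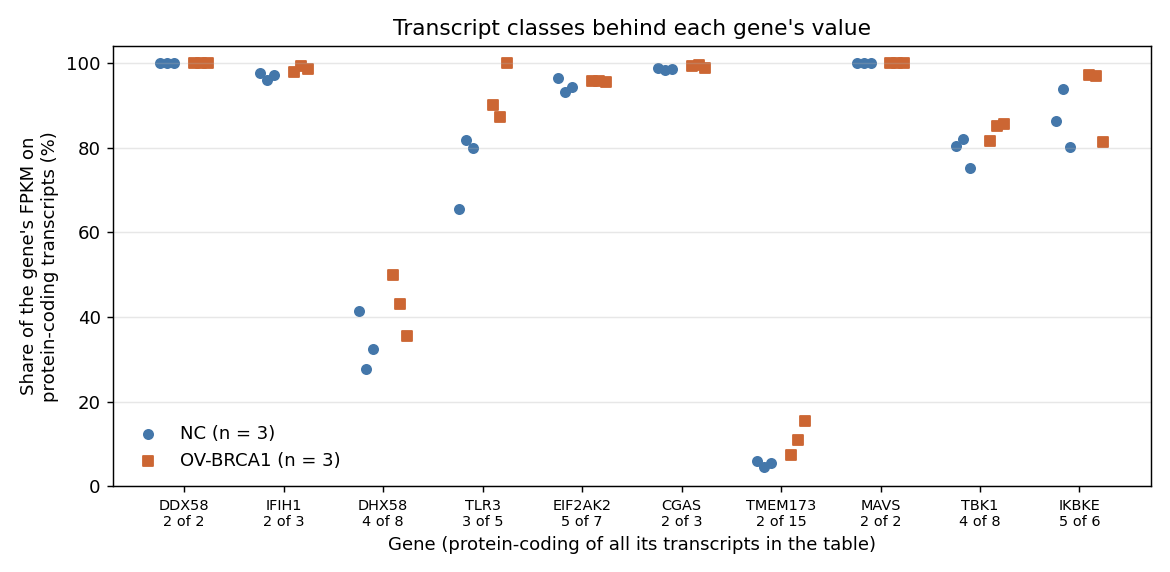
Share of each gene's FPKM on protein-coding transcripts (%) in the 3 NC samples (circles) and the 3 OV-BRCA1 samples (squares), with the number of protein-coding among all transcripts under each gene. TMEM173 lies at 4.59% to 15.5% and DHX58 at 27.7% to 49.9%, below the other genes.

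MAVS has 2 transcripts in the table, of 7 exons (MAVS-202) and 6 exons (MAVS-201). MAVS-202 fell from 7.504, 7.11 and 6.97 FPKM to 4.76, 4.56 and 4.05 FPKM (log2 fold change -0.59, adjusted p = 0.0443), while MAVS-201, at 0.239 to 0.362 FPKM in the NC samples and 0.303, 1.12 and 1.34 FPKM in the OV-BRCA1 samples, did not pass the filter. TBK1-201 carried most of TBK1 at 15.0, 14.6 and 15.5 FPKM against 15.0, 14.5 and 14.6 FPKM, and these values overlapped. TLR3-201 stood at 1.65, 1.47 and 1.83 FPKM against 0.406, 0.333 and 0.367 FPKM (log2 fold change 0.95, adjusted p = 0.0133), and TLR3-202 was listed at 0 in OV-BRCA1 replicate 1 and in all NC samples. IKBKE-203, the main transcript of IKBKE, did not pass the test (log2 fold change 0.31, adjusted p = 0.268).

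Genes that act with the sensors were taken from 6 lists of together 132 genes, of which 119 were tested. Of these, 47 rose and 9 fell, and 17 of the 47 were upregulated DEGs and none of the 9 was a downregulated DEG. The 47 and the 9 are 39.5% and 7.56% of the 119, beside 16.4% and 18.9% of all genes tested, and 2.89% of all genes tested were upregulated DEGs. Of all 16321 genes tested, 179 were downregulated DEGs, so few that a count of 0 among the 119 says little. After scaling to the protein-coding nuclear genes, a choice made after seeing the data, 41 rose and 15 fell, while of all 16334 genes then tested 2366 rose and 3475 fell. The median log2 fold change without that scaling was 0.15. The counts of each list are read beside the same shares. Among other nucleic acid sensors, 8 of 20 tested genes rose and 1 fell (median 0.14). After the scaling to protein-coding nuclear genes, 8 of this list rose and 4 fell. AIM2, an inflammasome sensor of DNA, was at 6.64, 5.48 and 6.59 FPKM against 0.276, 0 and 0.245 FPKM (log2 fold change 2.63, understated at such low NC levels). DDX60L rose by 2.62 on the log2 scale, from 11.5 ± 0.598 to 76.1 ± 4.98 FPKM (SD, n = 3 each). IFI16, a nuclear DNA sensor of the same family as AIM2, was at 192 ± 3.78 against 61.2 ± 3.69 FPKM (SD, n = 3 each). DDX60 rose by 1.99 on the log2 scale, and DDX23, a spliceosomal helicase, fell by 0.32, a call lost without any 1 of the OV-BRCA1 replicates, without NC replicate 1 or 2, with no filter and with median-of-ratios scaling. AIM2 passed the filter through the OV-BRCA1 samples alone, so it could not have been counted as lower. It is among the 8, the 47 and the 17. TLR8, ZBP1 and PYHIN1 were listed at 0 in every sample, and TLR7, TLR9 and NLRP1 did not pass the filter.

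Of 30 cofactors of the RIG-I-like receptors and of TLR3, 10 rose and 1 fell (median 0.10). TRIM14, a MAVS-binding protein, rose by 1.21, ZC3HAV1, the zinc-finger antiviral protein, by 1.21, and the chaperone HSP90B1, which serves Toll-like receptors, by 1.13. TRADD, a scaffold in MAVS and TNF receptor signalling, fell by 0.49. TICAM1, the adaptor of TLR3, rose by 0.37 from 8.88 ± 0.274 to 11.8 ± 1.00 FPKM (SD, n = 3).

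Inhibitors of sensor signalling rose in 9 and fell in 3 of 22 tested genes (median 0.28). USP18, which removes ISG15 from proteins and restrains interferon receptors, rose by 2.38 on the log2 scale, SAMHD1, which hydrolyses dNTPs, by 2.02, and TRIM38 by 1.04. PCBP2, which promotes the breakdown of MAVS, fell by 0.35, and RNASEH2C and RNF5 fell by 0.36 and 0.24. Of 19 tested cofactors of cGAS and STING, 5 rose and 1 fell (median 0.07). SURF4, a cargo receptor between the Golgi and the endoplasmic reticulum, rose by 0.68, the channel subunit LRRC8C by 0.87 and TRIM56 by 0.79. INSIG1, best known as a brake on sterol synthesis, fell by 0.98, at 36.6, 28.2 and 54.5 FPKM against 78.1, 76.0 and 76.2 FPKM, a call lost without OV-BRCA1 replicate 1.

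In the PKR and eIF2 pathway 8 of 16 genes rose and 3 fell (median 0.17). None was a DEG, beside 472 of all 16321 genes tested upward and 179 downward. The share of these 16 genes that fell, 18.8%, was close to that of all genes tested (18.9%). On protein-coding transcripts only, 8 genes of the list rose and 1 fell, while of all 11862 genes then tested 2105 rose and 1589 fell. EIF2S2, the beta subunit of eIF2, rose by 0.35, DNAJC3, an inhibitor of PKR, by 0.51 and the stress factor ATF4 by 0.53. PPP1CA, a phosphatase catalytic subunit, fell by 0.41 and TARBP2, a double-stranded RNA-binding protein, by 0.26.

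Among the transcription factors and ligands downstream, 7 of 12 tested genes rose and none fell (median 0.33). Beside that count of 0 from limma, 1 gene, the NF-kB subunit RELA, was lower at an unadjusted p below 0.05 (log2 fold change -0.77, adjusted p = 0.0544), and 1 gene of the list was called lower without OV-BRCA1 replicate 1 and after scaling to the protein-coding nuclear genes. CXCL10, a chemokine for T cells, was at 20.5, 21.2 and 24.5 FPKM against 0.364, 0.218 and 0.359 FPKM (log2 fold change 4.13), CCL5 rose by 2.82 and IRF7 by 1.62. CXCL10 and IFNL1 passed the filter through the OV-BRCA1 samples alone. IRF3, the constitutive target of TBK1, was at 41.9 ± 0.902 against 42.0 ± 2.11 FPKM (SD, n = 3 each; log2 fold change -0.00089, adjusted p = 0.991). IFNL1 was listed at 0 in all NC samples, and IFNB1 did not pass the filter, at 0.686, 0.774 and 0.479 FPKM in the OV-BRCA1 samples and 0.143, 0.0641 and 0 FPKM in the NC samples. AIM2, TICAM1, RELA, IRF3, IFNL1, IFNB1 and the untested sensors were named here after their values had been seen.

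**Figure D5:**
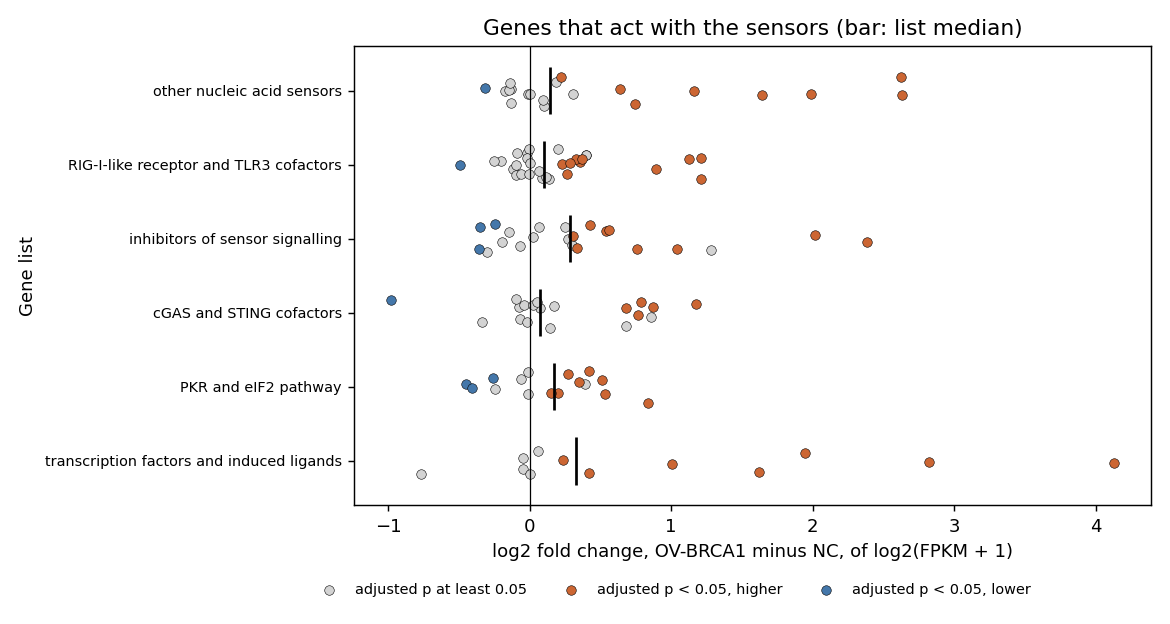
Log2 fold change of log2(FPKM + 1), OV-BRCA1 minus NC, of every tested gene in the 6 lists, coloured by its call in limma, with a bar at each list's median. The list medians lie between 0.07 and 0.33, and the point farthest to the right is CXCL10 at 4.13.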

How the data were processed

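mRNA of 6 SiHa cultures, 3 per group, was sequenced, and groups and replicate numbers came from the labels. The authors deposited FPKM per transcript, computed after removal of adapter, unknown-base and low-quality reads, and their processing notes name FastQC, HISAT2 and hg38. The annotation, the quantification tool and the use of strand are not given in the sources used here. The design allowed for counts or FPKM, and the files hold FPKM, from which the study's test of counts cannot be repeated. The study calls its samples biological replicates.

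For each gene, its transcripts' FPKM were added up, with names by GENCODE 29 (198868 of 199167 transcripts matched, 98.7% of them at the same position). Genes with at least 0.5 FPKM in at least 3 samples were tested with limma 3.58.1 (trend, R 4.3.3) on log2(FPKM + 1), with Benjamini-Hochberg adjustment. Called means an adjusted p below 0.05, and a DEG also has an absolute log2 fold change above 1. The fit was tested on simulated data. Whole reads could not be recovered from the FPKM (32.9% to 40.1% of low values lay within 0.1 of a whole number), so depth is an estimate from 14216 genes with 1 transcript. Intervals of the fold changes are at 95%.

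The 10 genes, the 6 pathway lists and the 3 marker lists were chosen with earlier results of these data known. Named were all 10 genes, BRCA1, up to 3 transcripts of each gene by mean FPKM, and up to 3 genes per list and direction with the smallest adjusted p, and a few others as stated. Alternatives were another pseudocount, no or a stricter filter, a replicate block, 2 other scalings, protein-coding transcripts only and each sample left out in turn.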

Additional observations from a re-analysis of the deposited data

How the results depend on the processing

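Under the 13 alternatives, the 7 genes called higher and the 1 called lower kept their direction and passed the test, except that TLR3 could not be tested with at least 1 FPKM in every sample (6 higher and 3 DEGs were then left, by construction). With 1 sample left out, members called higher numbered 7 to 8, pathway genes called higher 41 to 42 and lower 7 to 9, and the BRCA1 log2 fold change was 0.80 to 1.06. The gain was IKBKE, called without NC replicate 1 (log2 fold change 0.47). TBK1, never called, turned to 0.0071 with protein-coding transcripts only. The log2 fold change of MAVS ranged from -0.47 to -0.38 and its adjusted p from 0.00532 to 0.0318. After scaling to nuclear protein-coding genes, chosen after seeing the data, 15 pathway genes were called lower in place of 9, and of all genes tested 3475 in place of 3090. Samples with the same replicate number did not deviate together (r of -0.02 to 0.03 across genes), so the numbers are no pairing. A replicate block left 1 member transcript called in place of 6 (4 to 5 with a sample left out), for the genes it left 7 higher and 1 lower, and the DDX23 call was lost. The cause was not tested. TLR3 and IKBKE rest on the fewest estimated fragments.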
